A study of Rattus norvegicus with 10 samples.

Results

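Mitochondrial ribosomal proteins were examined in rat gastrocnemius, a calf muscle, after mild and short-term calorie restriction (CR). Members were the genes whose symbol in the array's annotation starts with Mrpl or Mrps, the usual prefixes for proteins of the large and the small subunit, read from the brightest probe set that carried only 1 gene. There were 76 such genes of 14217 genes with a probe set of their own, and all 76 lay at or above the signal minimum of 17.84, the 50th percentile, as did 9170 genes in all. Of the 76, 51 belonged to the large and 25 to the small subunit (Mrps18a and Mrps30 were counted with the large subunit, where they reside), and 45 had a bacterial homologue while 31 were specific to mitochondria.

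The mitochondrial ribosome translates the few messenger RNAs that the mitochondrial genome still encodes, all of them for core subunits of the respiratory chain and the ATP synthase. Its own proteins are encoded in the nucleus, made in the cytosol and imported, so their transcripts are read here beside those of the nuclear-coded respiratory chain subunits and of the cytosolic ribosome. In muscle, which depends on oxidative metabolism to a degree that varies with fibre type, this apparatus is part of what sets the capacity for mitochondrial protein synthesis.

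The rats were male Wistar, aged 6 weeks when the diets began, and received their full recorded intake (control) or 5%, 10%, 20% or 30% less, for 1 week or 1 month. All groups shared the same powdered diet and were fasted for 16 h before muscle was taken. The 10 groups had 5 rats each, whose RNA was combined into 1 pool and hybridized to 1 array, so no group had a replicate and a ratio between 2 arrays carries no error of its own. Tests therefore rest on trends or contrasts across arrays, and their standard errors (SE) come from the scatter of arrays around the fitted line. One line of the labels of the 1-week control and the 1-week 5% array states the opposite feeding from the rest, so the results were also read with those arrays exchanged.

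Facts of the whole series bear on the values below. The deposited signals had a trimmed mean of 99.6 on the 1-week arrays and 86.4 on the 1-month arrays, so signals are comparable as deposited only within a duration. All 10 fast fibre markers measured lay above the signal minimum, with a mean of 8.44 to 8.91 on the log2 scale above the array median. The mean of 10 slow fibre markers was 4.23 on the 1-week control array and 4.93 to 6.19 on the others, so every 1-week ratio compares arrays that also differ in those markers. The mean of 5 macrophage markers was 0.961 on the 1-month control array and 1.10 on the 1-week control array, against 1.28 to 1.85 on the restricted arrays. From control to 30% CR, the mean of 3 adipocyte markers went from 2.07 to 3.07 at 1 week and from 2.003 to 2.897 at 1 month, that of 3 endothelial markers from 2.88 to 2.48 and from 2.79 to 2.41, and that of 4 fibroblast markers from 6.28 to 6.49 and from 5.87 to 6.39. By log2 ratio at 30% CR, 0 of 3 endothelial markers were above the control at 1 week and 2 of 3 at 1 month. The lowest at 1 month was -1.40 and the median 0.01, so the lower mean there came from 1 marker. For the slope, 1 adipocyte, 1 macrophage and 1 fibroblast marker rose and 1 endothelial marker fell. The part of these in the results was not tested, and in a bulk sample fewer cells of a type and less RNA per cell cannot be told apart.

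The promoters of 4 members are shown because these members are named in the comparisons that follow. Mrpl58, a large-subunit protein with peptidyl-tRNA hydrolase activity, was the member that differed between durations, Mrps31 had the smallest p for the slope on restriction level, Mrps18b the smallest p for restricted against control, and Mrpl49 was low in both. Each sequence is from RefSeq (build GRCr8), runs 5′ to 3′ on the strand of the gene and covers 250 bases before the annotated start to 50 after it. They lie at chr10:101145092-101145391 on the plus strand for Mrpl58, chr16:76324016-76324315 on the minus strand for Mrps31, chr20:2842756-2843055 on the plus strand for Mrps18b and chr1:212779278-212779577 on the minus strand for Mrpl49. Capitals mark exact matches, on either strand, to GCATGCGC or TGCGCA (letters bound by NRF1), CCGGAAG (the ETS family, GABP among them) or AAGATGGC (YY1).
Mrpl58: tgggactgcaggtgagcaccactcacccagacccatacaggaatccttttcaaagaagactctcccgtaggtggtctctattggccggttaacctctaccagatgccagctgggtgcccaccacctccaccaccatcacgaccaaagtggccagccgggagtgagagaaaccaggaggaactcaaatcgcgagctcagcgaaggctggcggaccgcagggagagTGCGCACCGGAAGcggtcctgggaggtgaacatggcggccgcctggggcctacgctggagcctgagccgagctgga
Mrps31: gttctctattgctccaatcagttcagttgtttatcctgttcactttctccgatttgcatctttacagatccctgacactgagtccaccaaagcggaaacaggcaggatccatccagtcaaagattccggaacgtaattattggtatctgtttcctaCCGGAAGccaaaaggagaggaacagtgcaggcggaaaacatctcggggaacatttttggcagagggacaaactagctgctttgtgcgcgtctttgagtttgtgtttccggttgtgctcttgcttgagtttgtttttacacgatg
Mrps18b: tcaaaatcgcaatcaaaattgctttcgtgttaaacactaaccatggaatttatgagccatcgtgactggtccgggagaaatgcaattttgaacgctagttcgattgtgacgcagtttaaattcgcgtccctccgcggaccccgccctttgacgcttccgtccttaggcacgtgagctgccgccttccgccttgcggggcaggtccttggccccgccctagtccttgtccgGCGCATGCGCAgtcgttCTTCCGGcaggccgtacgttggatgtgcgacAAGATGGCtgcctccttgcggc
Mrpl49: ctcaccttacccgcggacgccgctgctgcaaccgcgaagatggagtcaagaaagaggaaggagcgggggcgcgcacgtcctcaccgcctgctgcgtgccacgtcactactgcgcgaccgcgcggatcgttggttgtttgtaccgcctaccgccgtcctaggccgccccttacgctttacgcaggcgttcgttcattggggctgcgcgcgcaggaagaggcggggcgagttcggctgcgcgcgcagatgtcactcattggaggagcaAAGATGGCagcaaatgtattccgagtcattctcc

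The Mrpl58 promoter held TGCGCA beginning 26 bases before the start and CCGGAAG directly after it, at 20 bases before the start. Mrps18b held all of these motifs, the NRF1 letters beginning 20 bases before the start, CCGGAAG on the opposite strand 3 bases before it and AAGATGGC at base 29 after it, and Mrpl49 held AAGATGGC beginning at base 17 after it. Mrps31 held 1 match, CCGGAAG, 94 bases before the start.

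RefSeq promoters were found for 62 of the 76 members, 64 promoters in all. Of these 64, 59.4% held at least 1 of the NRF1, ETS or YY1 motifs, against 21.4% of 21851 promoters of protein-coding genes and 34.2% of promoters of the genes tested. The share was 60.6% for nuclear-coded respiratory chain subunits and 51.2% for cytosolic ribosomal proteins. By motif, TGCGCA was in 25% of member promoters (8.74% of protein-coding and 13.7% of tested genes' promoters), GCATGCGC, whose letters can overlap TGCGCA, in 7.81% (3.11% and 5.39%), CCGGAAG in 31.2% (10.7% and 18.3%) and AAGATGGC, which can overlap a start codon, in 21.9% (3.67% and 5.97%). The SP-family motif GGGCGG was in 46.9%, against 41.8% and 63.2%, while the median GC content was 55.7% in members, 55.0% in protein-coding and 61.0% in tested genes' promoters. A match is a description of letters in the window and says nothing of binding in these muscles.

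Mean signals of the members, each over 10 arrays, ran from 90.3 to 1803 with a median of 419. The highest belonged to Mrpl54, Mrpl15 and Mrpl12, the last of which forms the flexible stalk that recruits translation factors, and the lowest to Mrps27, Mrpl10 (the base of that stalk) and Mrps2. Signals of different probe sets are not on a common scale, so this order is not one of transcript abundance.

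The members changed little with restriction. Each restricted array was set against the control array of its duration, and the 608 log2 ratios of the 76 members lay between -0.50 and 0.46, the largest being a 1.42-fold difference. The median size of a ratio was 0.11, against 0.15 for 7040 probe sets in the same range of signal and 0.20 for all 15521 probe sets tested. Ratios of at least 0.25 in size made up 13.2% of the members' ratios, 29.9% of those in the same signal range and 41.8% of all. At least 1 ratio of 0.5 or more in size was found for 2 of 76 members (2.63%), Mrps27 and Mrpl38, and for 48.7% of all probe sets tested.

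**Figure D1:**
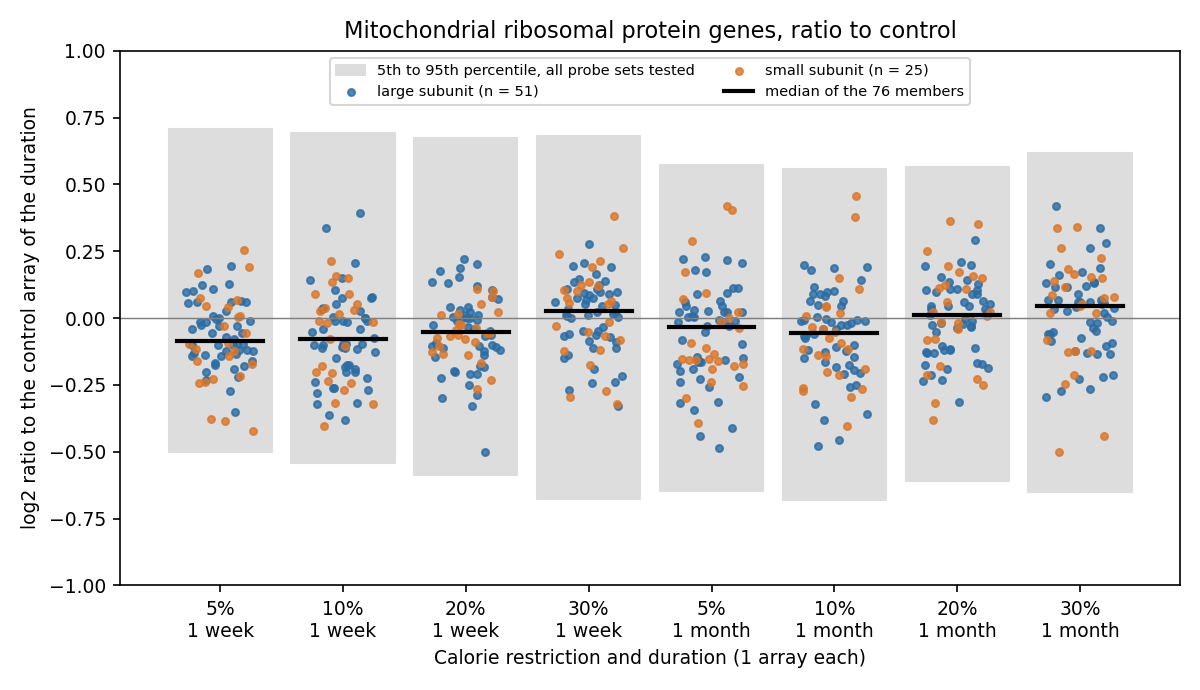
Log2 ratio of each of the 76 members to its control (vertical axis) on the 8 restricted arrays (horizontal axis, level of restriction and duration, 1 array each). Points are genes coloured by subunit, black bars are member medians and grey boxes span the 5th to 95th percentile of all 15521 probe sets tested. The points stay between -0.50 and 0.46, and the medians rise from -0.09 at 5% to 0.03 at 30% at 1 week and from -0.03 to 0.04 at 1 month.

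At 1 week, the median member ratio was -0.09, -0.08, -0.05 and 0.03 at 5%, 10%, 20% and 30% CR, with 24, 26, 28 and 46 of 76 members above the control. At 1 month, it was -0.03, -0.05, 0.01 and 0.04, with 31, 24, 39 and 46 above the control. Of all probe sets tested, 49.4% to 52.3% were above the control at 1 week and 47.6% to 48.3% at 1 month. With the arrays as labelled and the deposited scaling, most members were thus below the control at 5% and 10% CR and above it at 30%, in both durations. The 1-month part of this depends on the scaling. On the log2 scale above the array median, the member mean at 1 month was 4.432 in the control and 4.503, 4.541, 4.468 and 4.522 from 5% to 30% CR. At 1 week it was 4.525 in the control and 4.258, 4.294, 4.403 and 4.532. The 4 ratios of a duration share their control array. Once the 1-week control was exchanged with the 5% array, the 1-week medians were 0.09, 0.0002, 0.02 and 0.08. Then 52, 39, 43 and 57 members were above the control. The 5% ratios can only change sign in this exchange, so their turn carries no information. The direction at 10% was lost, and the median at 20% went from -0.05 to 0.02.

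No member had all 8 ratios at least 0.25 in size with 1 sign, which 2.54% of all probe sets tested did. All 8 ratios had 1 sign, of any size, in 8 members (10.5%, against 16.6% of all). Mrpl39 was above the control on all 8 restricted arrays, by up to 0.14 log2, and Mrpl17, Mrpl20, Mrpl22, Mrpl49, Mrpl55, Mrps18b and Mrps2 were below it on all 8 (named after their values were seen). With 0.1 as the minimum size, only Mrps2 remained.

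The first question was whether signals followed the level of restriction. The slope of log2 signal on level, with all 10 arrays in the fit and a term for duration, passed for 0 of 76 members at an adjusted p of 0.05 in limma, where 2% of all probe sets passed. At an unadjusted p of 0.05 it was 3 members (3.95%), against 14.3% of all probe sets tested. The median slope of the members was 0.02 log2 per 10 percentage points, and the range was -0.07 to 0.08. Of 76 members 53 (69.7%) were above 0, against 48.3% of all probe sets tested. The median slope was 0.02 in the large and 0.02 in the small subunit, 0.02 in members with a bacterial homologue and 0.02 in those specific to mitochondria.

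These slopes were measured with little scatter. The median SE of a member's slope was 0.032, against 0.039 over probe sets in the same signal range and 0.054 over all probe sets tested. Carried over 30 percentage points, the 95% bounds of the slope lay within 0.5 log2, a 1.41-fold difference, for 75 of 76 members, and the widest bounds were -0.50 and 0.54.

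Mrps31, a small-subunit protein specific to mitochondria, had signals of 279.2 in the 1-week control and 247.6, 276.7, 301.4 and 324.0 at 5%, 10%, 20% and 30% CR, and of 235.2 in the 1-month control and 238.7, 242.3, 264.9 and 263.7. Its 20% and 30% arrays were above the control at both durations, while 5% and 10% at 1 week were below it. The slope was 0.08 ± 0.03 (SE, 10 arrays), and its adjusted p by limma, 0.194, was the smallest of any member. Mrpl9, a large-subunit protein with a bacterial homologue, had signals of 334.2, 295.1, 334.2, 318.9 and 360.7 from control to 30% CR at 1 week and 287.9, 335.4, 327.9, 330.3 and 385.3 at 1 month. The array at 30% was the highest of its duration both times, and the slope was 0.08 ± 0.03 (adjusted p = 0.260, limma). For Mrpl53, of the large subunit, the slope was 0.06 ± 0.03 with an adjusted p of 0.325 (limma), and its signals went from 893.3 in the control to 950.5 at 30% CR at 1 week and from 689.7 to 838.6 at 1 month.

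In the other direction the 3 members with the smallest p were all of the large subunit, and none passed. Mrpl49 had a slope of -0.07 ± 0.03 (adjusted p = 0.356, limma), while a different probe set of the gene gave -0.03. The slope of Mrpl45, which lines the exit tunnel and anchors the ribosome to the inner membrane, was -0.07 ± 0.04 (adjusted p = 0.432). That of Mrpl19 was -0.05 ± 0.03 (adjusted p = 0.462). Mrpl45 was above the control at 5% and 10% CR at 1 week (0.13 and 0.05) and below it on the other 6 restricted arrays (-0.14 to -0.46).

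**Figure D2:**
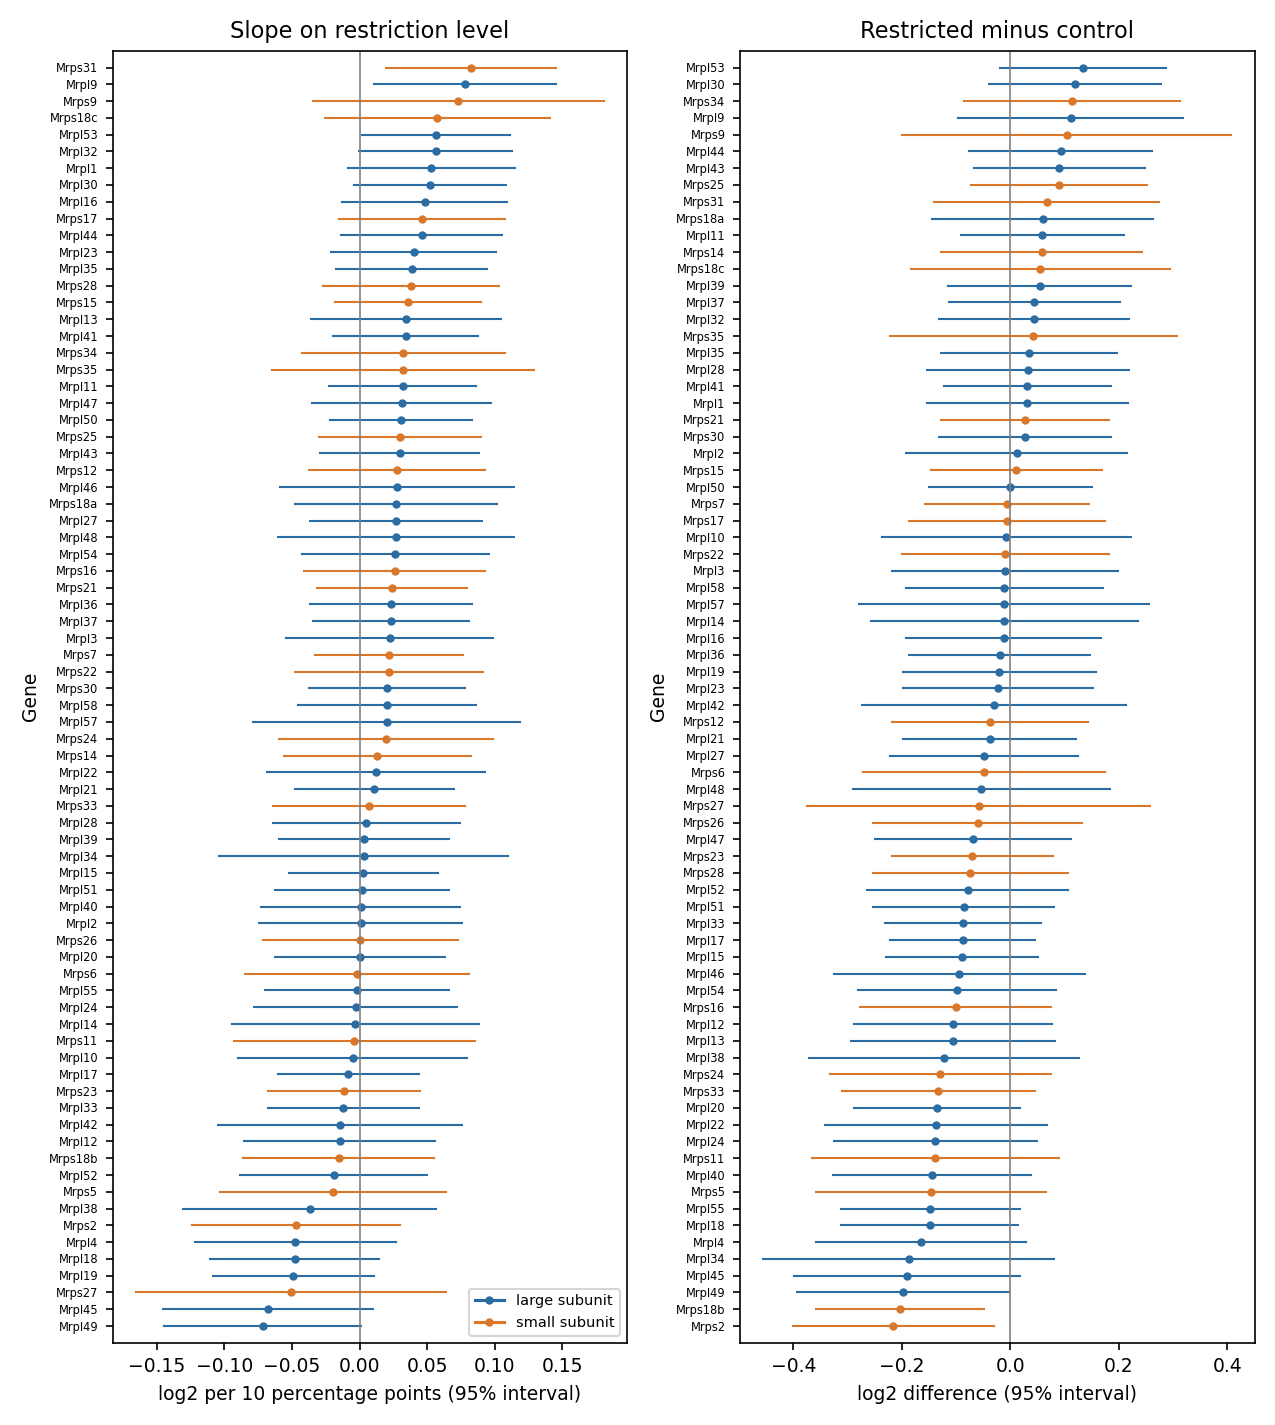
Estimates for the 76 members, sorted, with 95% intervals (horizontal axis). The left panel shows the slope on restriction level in log2 per 10 percentage points, the right panel restricted (8 arrays) minus control (2 arrays) in log2, both with a term for duration. Colours mark the subunit. The slopes lie between -0.07 and 0.08 and the differences between -0.22 and 0.13, and no member passed after adjustment over all probe sets.

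The second question was whether restriction of any level set the arrays apart from the controls. Contrasted with the 2 controls, the average of the 8 restricted arrays passed for 0 of 76 members, against 2% of all probe sets tested. At an unadjusted p of 0.05 it was 3 members (3.95%), against 14.2% of all. The 95% bounds of all 76 members lay within 0.5 log2 (-0.45 to 0.41). The median difference was -0.03 log2, with 25 of 76 members (32.9%) above 0, against 48.3% of all probe sets tested. With the 1-week control and 5% arrays exchanged the median was 0.01 and 39 of 76 were above 0, so its direction rests on those labels. Of all 15521 probe sets tested, 1 rose and 0 fell in the exchanged fit, against 175 and 136 with the arrays as labelled.

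The 3 members with the smallest p were lower in restricted muscle. Mrps18b, 1 of several mitochondrial relatives of a single bacterial small-subunit protein, had a signal of 705.4 in the 1-week control and 601.7, 612.8, 628.5 and 697.9 at 5%, 10%, 20% and 30% CR, and of 635.8 in the 1-month control and 533.7, 518.7, 548.0 and 535.5. Each control was the highest array of its duration, and the restricted arrays did not overlap with it, although the 1-week 30% array came close. The difference was -0.20 ± 0.07 (adjusted p = 0.190, limma). With the 1-week control and 5% arrays exchanged it was -0.06, with an adjusted p of 0.843.

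Mrps2, a small-subunit protein with a bacterial homologue, had signals of 188.0, 159.0, 150.9, 160.2 and 166.4 from control to 30% CR at 1 week and 160.4, 144.1, 145.5, 134.7 and 138.3 at 1 month. Again each control was the highest array, and the difference was -0.22 ± 0.09 (adjusted p = 0.260), or -0.06 with the arrays exchanged. Its other probe sets gave -0.0026 and -0.12. Mrpl49 had signals of 214.4, 210.7, 181.5, 175.5 and 177.9 at 1 week and 191.6, 171.3, 161.1, 175.0 and 164.3 at 1 month. The difference was -0.20 ± 0.09 (adjusted p = 0.340), and a different probe set of the gene gave -0.20 as well.

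In the direction of higher signal, the members with the smallest p were Mrpl53 (0.13 ± 0.07, adjusted p = 0.426), Mrpl30 (0.12 ± 0.07, adjusted p = 0.503) and Mrpl43 (0.09 ± 0.07, adjusted p = 0.634), all of the large subunit. Mrpl30 was above the control on 7 of 8 restricted arrays, by up to 0.21, and at -0.01 on the 1-week 10% array. Mrpl53 and Mrpl43 had their higher ratios at 1 month, where Mrpl53 reached 0.20 to 0.29 and Mrpl43 0.05 to 0.26.

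**Figure D3:**
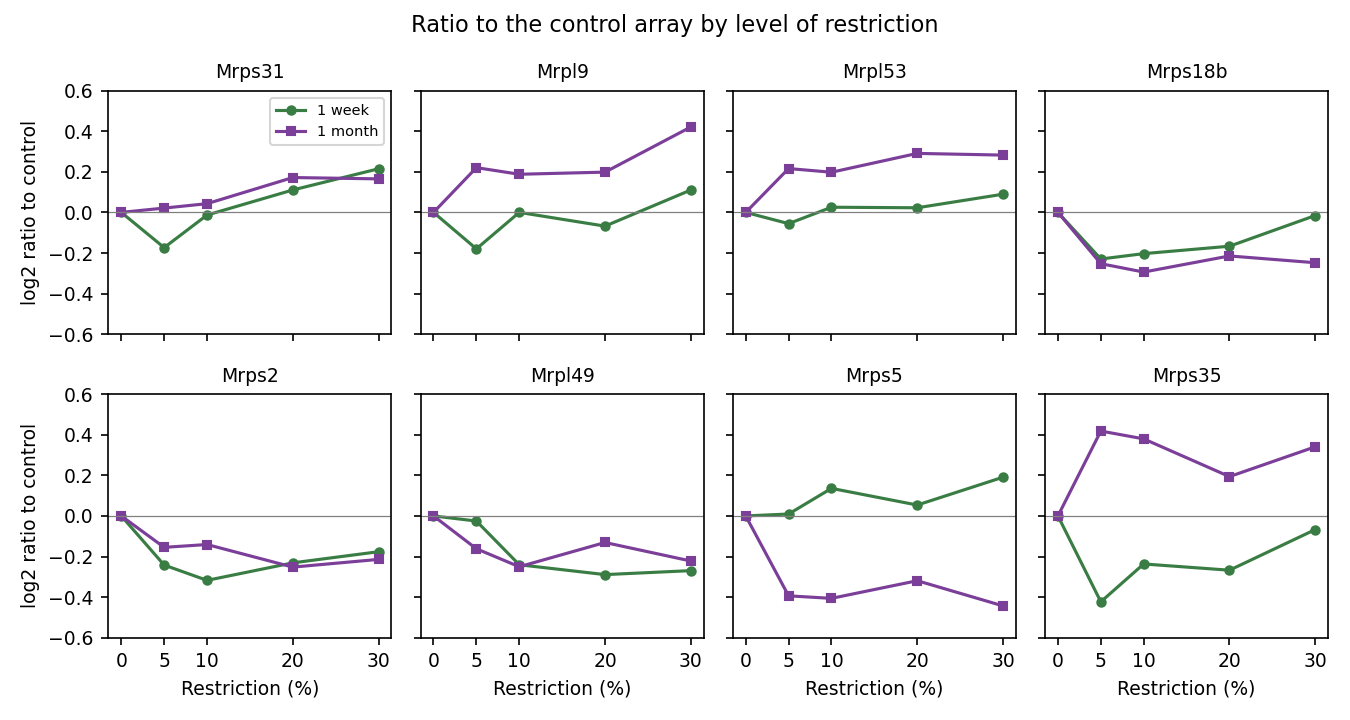
Log2 ratio to the control array (vertical axis) by level of restriction in percent (horizontal axis, 0 is the control) for 8 members, at 1 week (circles) and 1 month (squares), 1 array per point. Mrps31 and Mrpl9 are highest at 30% CR or next to it, Mrps18b, Mrps2 and Mrpl49 are below the control on all 8 restricted arrays, and Mrps5 and Mrps35 take opposite signs at the durations.

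The durations were then set against each other. The difference between the slopes at 1 month and 1 week passed for 0 of 76 members and 0% of all probe sets tested in limma, with 7 members (9.21%) and 6.06% of all at an unadjusted p of 0.05. The difference between the restricted against control contrasts, which rests on 1 control array per duration, also passed for 0 members and 0% of all, with 3 members (3.95%) and 7.22% of all at an unadjusted p of 0.05. Those 3 were Mrps5, Mrps35 and Mrps6, all of the small subunit.

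Mrps5, which has a bacterial homologue, had signals of 319.3, 321.4, 350.8, 331.4 and 364.4 from control to 30% CR at 1 week and 381.8, 290.7, 288.2, 306.1 and 280.9 at 1 month. The control was the lowest array at 1 week and the highest at 1 month, and the contrasts differed by -0.49 ± 0.16 (adjusted p = 0.512, limma). Mrps35 ran the opposite way, with 246.1, 183.6, 208.9, 204.5 and 234.9 at 1 week and 164.3, 219.5, 213.7, 187.9 and 208.0 at 1 month. Its control was the highest array at 1 week and the lowest at 1 month (difference 0.58 ± 0.20, adjusted p = 0.552), and that of Mrps6 likewise (0.42 ± 0.18, adjusted p = 0.657). With the 1-week control and 5% arrays exchanged, the difference was 0.05 ± 0.20 for Mrps35, whose 1-week ratios were then 0.16 to 0.42, and 0.15 ± 0.21 for Mrps6, while Mrps5 kept -0.48 ± 0.16 (adjusted p = 0.991, 0.968 and 0.891). Opposite signs of all 4 ratios at the durations were found in 8 members (10.5%) and in 8.67% of all probe sets tested, 4 members in each order.

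The widest range of ratios was that of Mrps27, a small-subunit protein specific to mitochondria and the dimmest member. Its ratios were 0.25, 0.21, -0.07 and 0.38 from 5% to 30% CR at 1 week and -0.18, -0.19, -0.38 and -0.50 at 1 month, from signals of 66.9 to 119.7. Mrps35 came next, then Mrps9 (-0.38 to 0.46), of the small subunit, and Mrpl57 (-0.41 to 0.39), of the large subunit. Mrps9 was below the control at 5% and 10% CR at 1 week (-0.38 and -0.32) and above it at 30% (0.26), while at 1 month it was highest above the control at 10% (0.46) and lowest at 30% (0.18). Of these 4, none had an adjusted p under 0.5 for the slope.

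Since both controls enter every result above, a slope without them was fitted as well, to the 8 restricted arrays. Then 62 of 76 members (81.6%) had a positive slope, against 47.8% of all probe sets tested. The member median was 0.04 log2 per 10 percentage points, against a median of -0.0039 over all probe sets tested. This slope passed for 0 members in limma (the smallest adjusted p was 0.314, for Mrps31), and at an unadjusted p of 0.05 it was 10 members (13.2%), against 10.4% of all. Those 10 were Mrps31, Mrpl13, Mrps28, Mrpl16, Mrpl23, Mrps16, Mrpl9, Mrpl54, Mrpl32 and Mrps17. By subunit, 38 of 51 large-subunit and 24 of 25 small-subunit members were positive. Leaving out each of the 8 arrays in turn left 56 to 67 members positive and a median of 0.03 to 0.04.

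Members were set beside the 2 lists nearest to them in function. At 1 week the median ratio of 73 nuclear-coded respiratory chain subunits was 0.05, 0.05, 0.06 and 0.15 from 5% to 30% CR, and that of 44 cytosolic ribosomal proteins -0.06, -0.03, 0.02 and 0.09. At 1 month it was -0.31, -0.19, -0.14 and -0.09 for the respiratory chain and -0.24, -0.14, -0.08 and -0.02 for the cytosolic ribosome. The 10 fast fibre markers moved alongside at 1 month, with median ratios of -0.63, -0.35, -0.38 and -0.28 and 0 of 10 above the control on any array. At 1 week all 10 were above it on every restricted array, with array medians of 0.07 to 0.12 and single markers up to 0.97. Their part in these values was not tested. The member median stayed within 0.09 of the control throughout, while both other lists were farther from it at 5% CR at 1 month. In the restricted arrays alone the slope was positive in 73 of 73 respiratory chain subunits (median 0.06) and 40 of 44 cytosolic ribosomal proteins (median 0.06). The difference between lists was not tested.

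**Figure D4:**
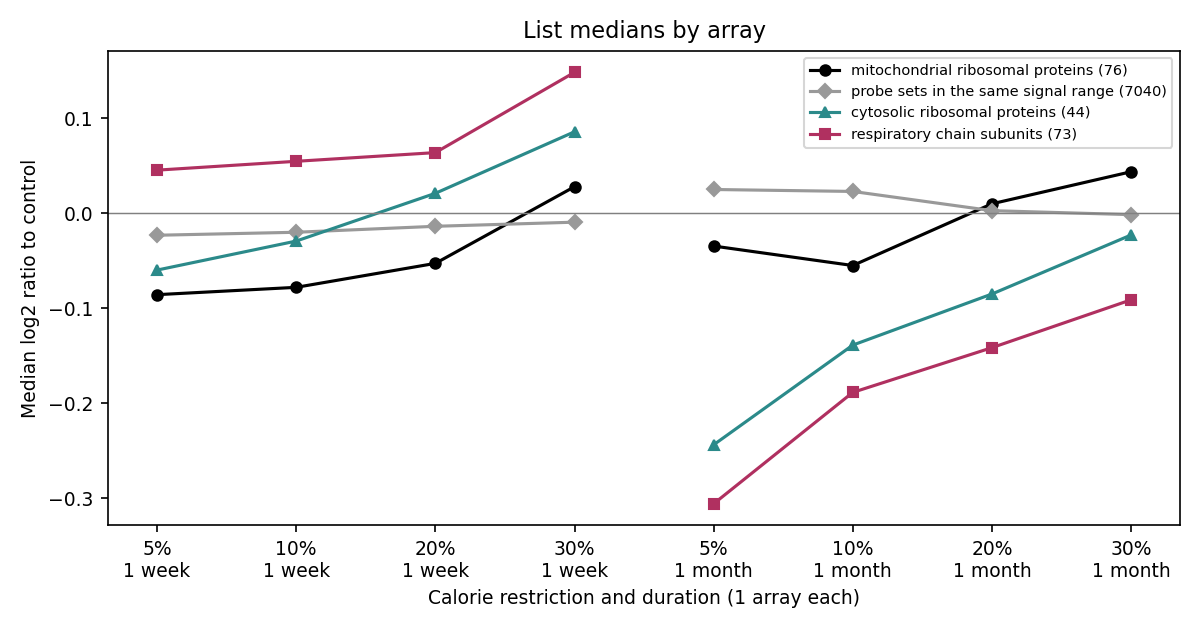
Median log2 ratio to the matching control (vertical axis) on the 8 restricted arrays (horizontal axis, level and duration, 1 array each) for the 76 members, 7040 probe sets in the same range of signal, 44 cytosolic ribosomal proteins and 73 respiratory chain subunits. The member median runs from -0.09 to 0.04, and at 1 month the respiratory chain runs from -0.31 to -0.09.

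The members also varied together less. Over the 10 arrays, as deviations from the mean of each duration, the median Pearson r of 2850 pairs of members was 0.16, with quartiles of -0.13 and 0.41. For respiratory chain subunits it was 0.65 (2628 pairs) and for cytosolic ribosomal proteins 0.52 (946 pairs). The median SD of a gene was of similar size in the 3 lists, at 0.107, 0.116 and 0.0998 log2. The lists also differ in signal. On the 1-week control array their means were 4.525 (members), 7.15 (respiratory chain) and 6.771 (cytosolic ribosome) log2 above the array median. The part of signal in these correlations was not tested. Pairs within a list share arrays and scaling, and these correlations are descriptions without a test.

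The other genes of mitochondrial translation showed as few calls with restriction. In both fits 2% of all probe sets tested passed, so lists this short would hold few calls or none in any case. For the slope, 0 of 5 mitoribosome proteins with other names, 0 of 13 translation factors, 0 of 16 mitochondrial aminoacyl-tRNA synthetases, 0 of 21 genes of ribosome assembly and rRNA modification, 0 of 16 of mitochondrial transcription and mRNA handling and 0 of 14 chaperones and proteases passed. Dap3, the GTP-binding protein of the small subunit, had a slope of -0.03 ± 0.04 and Aurkaip1 of -0.01 ± 0.04. Among translation factors the smallest p were those of Pdf, the deformylase (-0.08 ± 0.04), and Mrrf, the recycling factor (0.08 ± 0.06), and among synthetases those of Kars1 (0.08 ± 0.03) and Iars2 (0.10 ± 0.04). Fastkd2, an assembly factor, had a slope of -0.12 ± 0.04 and Ddx28, a helicase, of 0.14 ± 0.06, with Mterf2 at 0.22 ± 0.06 (adjusted p = 0.0661) and Ptcd1 at 0.11 ± 0.04 among genes of transcription and mRNA and Hspd1 at -0.06 ± 0.03 and Grpel1 at 0.06 ± 0.03 among chaperones. For restricted against control none of these lists had a call either, and the estimates with the smallest p were Iars2 (0.35 ± 0.10, adjusted p = 0.0962), Polrmt (0.41 ± 0.13, adjusted p = 0.130) and Mterf2 (0.51 ± 0.17, adjusted p = 0.156).

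Of 10 regulators of mitochondrial biogenesis, 1 rose with the level, where 2% of all probe sets tested passed in either direction. Ppargc1a, the coactivator PGC-1alpha, had signals of 184.4, 276.3, 223.9, 422.2 and 446.6 from control to 30% CR at 1 week and 180.9, 276.0, 247.8, 250.4 and 273.1 at 1 month. Both controls were below all restricted arrays of their duration, and the slope was 0.27 ± 0.07 (adjusted p = 0.0496, limma). The call was held in 7 of 23 alternatives and was lost without the control, 5%, 10%, 20% or 30% array at 1 week and without the control, 10% or 20% array at 1 month (adjusted p = 0.0564 to 0.266). It was also lost with the 1-week control and 5% arrays exchanged (0.25, adjusted p = 0.141), where the 10% array is below the array then taken as control. At 1 month alone the slope was 0.12 (adjusted p = 0.626), and the restricted against control difference was 0.68 ± 0.19 (adjusted p = 0.0903).

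The last comparison was of 1 month with 1 week, with each array centred on the median of its probe sets because the deposited scaling differed. Duration and age cannot be told apart in it. Of 76 members 1 rose (1.32%), none fell, and 8.79% of all probe sets tested passed in either direction, 6.04% upwards. At an unadjusted p of 0.05 it was 11 members (14.5%), against 24.8% of all. The median difference was 0.10 log2. Of 76 members 66 (86.8%) were above 0, against 65.6% of all probe sets tested and 72.4% of those in the same signal range. The median of all probe sets tested was 0.08, so that relative to it the members were at 0.02.

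The member that rose was Mrpl58, at 0.30 ± 0.08 log2 (adjusted p = 0.0316, limma). Its deposited signals were 358.1, 383.7, 358.5, 347.8 and 377.3 from control to 30% CR at 1 week and 376.7, 339.6, 336.3, 406.7 and 372.0 at 1 month, which overlap, so the difference arises once arrays are centred. Without centring it was 0.0020 (adjusted p = 0.984). The call was lost without the 1-week 5%, 10% or 20% array and without any of the 4 restricted arrays at 1 month (adjusted p = 0.0591 to 0.0889). Mrpl9 followed at 0.31 ± 0.10 (adjusted p = 0.0589), then Mrpl15 at 0.22 ± 0.07 (adjusted p = 0.0710). In the other direction the smallest p were those of Mrpl45 (-0.10 ± 0.08), Mrpl24 (-0.11 ± 0.10) and Mrpl12 (-0.10 ± 0.09), with adjusted p of 0.472 to 0.554.

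The direction of the members as a group followed the scaling. Without centring 45 of 76 (59.2%) fell, against 32.8% of all probe sets tested, and the median was -0.20, while that of all probe sets moved by -0.29 to -0.21. With quantile normalization the median was -0.0058 and with centring on the tested probe sets 0.02, where Mrpl9 (0.23, adjusted p = 0.0450) and not Mrpl58 (0.22, adjusted p = 0.0535) passed. Relative to all probe sets tested, the member median was 0.02, -0.02, 0.02 and 0.02 with array medians, quantile normalization, no centring and the tested probe sets, and -0.04 with log2 of signal plus 32.

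**Figure D5:**
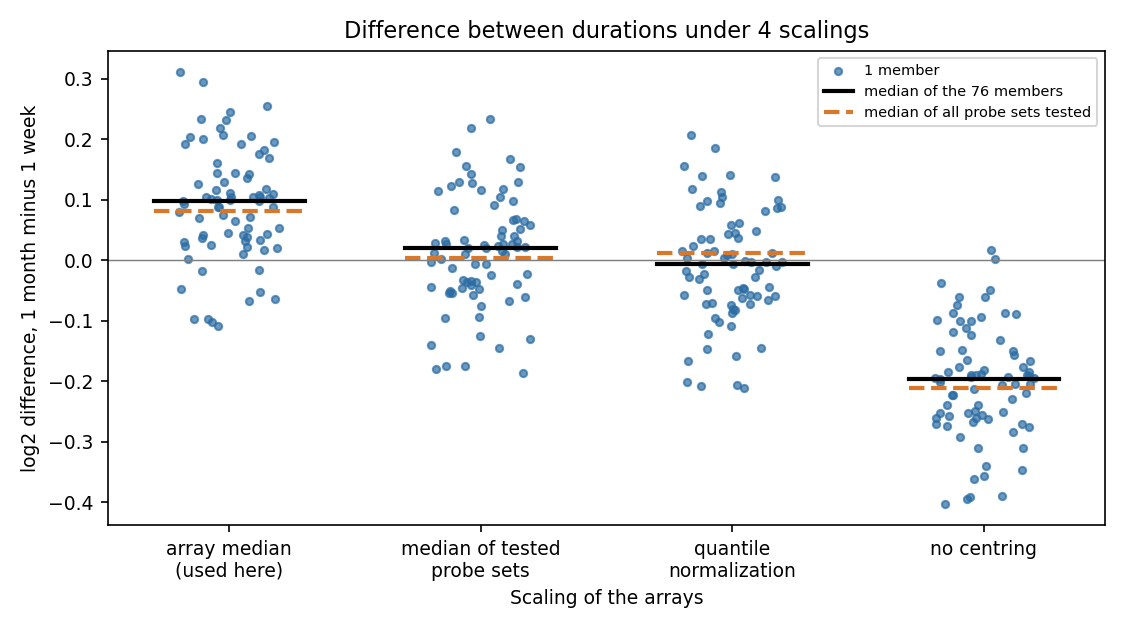
Log2 difference of 1 month minus 1 week (vertical axis) for the 76 members under 4 scalings of the arrays (horizontal axis). Points are members, black bars their median and dashed bars the median of all 15521 probe sets tested. The member median moves from 0.10 to -0.20 with the scaling and stays within 0.02 of the median of all probe sets under these 4.

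Across the related lists, few genes were called for duration, where 6.04% of all probe sets tested rose. Those that rose were 1 of 21 genes of ribosome assembly and rRNA modification, 1 of 10 regulators, 1 of 16 of transcription and mRNA and 1 of 14 chaperones and proteases. No gene passed among 5 mitoribosome proteins with other names, 13 translation factors and 16 synthetases, and none fell in any of these lists. Noa1, a GTPase of ribosome assembly, rose by 0.55 ± 0.11 (adjusted p = 0.00505), Esrra, a nuclear receptor that partners with PGC-1alpha, by 0.43 ± 0.10 (adjusted p = 0.0110), Tfb2m, a mitochondrial transcription factor, by 0.41 ± 0.09 (adjusted p = 0.0117) and Clpx, the unfolding subunit of a matrix protease, by 0.36 ± 0.08 (adjusted p = 0.0105). Each was called in 17 or 18 of 19 alternatives. Without centring none was called, and the differences were between 0.07 and 0.26 (adjusted p = 0.0585 to 0.407, limma). Among mitoribosome proteins with other names, Gadd45gip1 (0.17 ± 0.09) and Chchd1 (0.14 ± 0.08) did not pass, nor did Mtfmt (0.20 ± 0.11), Tufm (0.15 ± 0.09), Aars2 (0.42 ± 0.18) or Sars2 (-0.37 ± 0.16).

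For 15 members a further 19 probe sets lay above the signal minimum. They had the sign of the brightest probe set in 12 of 19 cases for the slope, 14 of 19 for restricted against control and 13 of 19 for duration, and none passed. Mrps27 was an example of disagreement, with 0.33 for restricted against control on a different probe set and -0.06 on the brightest.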

How the data were processed

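Gastrocnemius RNA of 5 male Wistar rats per group was pooled by the authors, and every pool was run on a single Affymetrix array. The deposited values are linear intensities from MAS5, per the labels, that the authors scaled on each array, with 1 value per probe set and array and no detection or change call. The scaling target is not given in the sources used here, and the number of arrays limits the precision.

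From these, signals under 0.1 were set to 0.1 and log2 taken. Of 31042 probe sets that were no controls, 15521 at or above the 50th percentile of mean log2 signal were tested. Symbols came from the platform annotation, and all 76 members were matched to RefSeq by gene identifier. Tests used limma 3.58.1 (R 4.3.3) with lmFit and a trended eBayes, and Benjamini-Hochberg adjustment over all 15521. Residual degrees of freedom were 7, or 6 for differences between durations and 5 for the slope in the 8 restricted arrays. Among the alternatives they were 6 with 1 of the 10 arrays left out, 4 with the level as a block and 3 for single durations. For duration, arrays were centred on the median of all probe sets. p-values measure scatter between arrays of pooled RNA, not between rats. The code was tested on simulated data. Alternatives were another normalization, filter, offset, variance trend, centring and probe set, single durations, and leaving out each array.

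Named members were those that passed or, where none did, the 3 with the smallest p in each direction, with the 3 brightest, the 3 dimmest and the 4 with the widest range of ratios. Members and lists were chosen with earlier results of these data known. Lists were described by counts and medians only.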

Additional observations from a re-analysis of the deposited data

How the results depend on the processing

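Under every alternative run, 0 members passed for the slope on restriction level, for restricted against control and for both differences between durations, and the medians of these stayed within the spread between members. The median of restricted against control was 0.01 with the 1-week control and 5% arrays exchanged, and that of its difference between durations turned from 0.05 to -0.09. The count of members with all 8 ratios of 1 sign was 1 with a minimum of 0.1 and 0 with 0.25 or 0.5.

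Results on duration moved. The number of members that rose was 0 with quantile normalization, without the variance trend, with log2 of signal plus 32, without centring and with the level as a block, 2 with the 70th percentile filter, and 0 to 4 when 1 array was left out (4 leaving out the 1-week control, 2 leaving out that of 1 month). Over all probe sets tested, 1.13% to 4.66% rose under the alternatives with 0, 10.9% with that filter, 8% without the 1-week control and 7.39% without that of 1 month. The number that fell was 3 (3.95%, against 8.46% of all) with log2 of signal plus 32 and 45 (59.2%, against 32.8%) without centring. The median member difference was -0.0058 with quantile normalization, -0.0747 with log2 of signal plus 32 and -0.20 without centring. Mrpl58 had an adjusted p of 0.109 with quantile normalization, 0.0660 without the trend, 0.278 with log2 of signal plus 32 and 0.0931 with the level as a block. Centring moved the reference for all probe sets, and the cause of the other changes was not tested. Centring on the tested probe sets, leaving out restricted arrays from the fit to those arrays alone and the medians of ratios with arrays exchanged were chosen after seeing the data. The level as a block pairs the arrays of the durations by level of restriction, and no other pairing exists in this design.

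The number of arrays limits precision.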
